A study of Homo sapiens with 4 samples.

Results

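The 8 messages described here encode the subunits of CCT, the cytosolic chaperonin also called TRiC: TCP1 (the alpha subunit), CCT2, CCT3, CCT4, CCT5, CCT6A, CCT7 and CCT8. They were taken by gene symbol from a deposited count table of 61543 genes, and all 8 were found and passed the filter on low counts. They were measured in medium, containing fetal bovine serum, in which HEK293T cells had grown, a line derived from human embryonic kidney. In 1 group the cells released EPN24-Cas13d, in which the protein of a secreted nanocage is fused to Cas13d, a CRISPR enzyme that is guided to RNA. In the other group they released EPN24 without Cas13d. Each group had 2 libraries, and both received synthetic ERCC RNA before extraction. The design asks to which cellular RNAs Cas13d binds, as read from the RNA that nanocages carry out. All RNA of the filtered supernatant was extracted, whether in nanocages or not, and the labels name no guide RNA. They do not say that replicates are separate cultures, so p-values cover only the spread between libraries, possibly a technical one.

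CCT is a double ring in which each ring holds 1 copy of each of the 8 paralogous subunits, so the proteins are needed in equal amounts. It takes up newly made actin, tubulin and many WD-repeat proteins, folds them in a closed chamber and releases them with ATP. Prefoldin hands actin and tubulin to it, phosducin-like proteins act with it, and tubulin cofactors take over tubulin after release. In growing cells such as HEK293T, all 8 subunits are made throughout.

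The subunits share an ATP-binding motif whose codons show how differently the 8 messages are written. The stretch below was read from the principal GENCODE transcript of each gene (release 29, build GRCh38), 5′ to 3′ on the coding strand, and is shown because base composition is compared with the measurements further on. Capitals mark the motif, 4 codons in a row that begin with GG, GA, GG and AC and end in any base. In these genes they encode glycine, aspartate, glycine and threonine. The motif occurred once in each of the 8 coding sequences and in 1.89% of 19623 coding sequences searched on that strand and in that frame.
CCT7: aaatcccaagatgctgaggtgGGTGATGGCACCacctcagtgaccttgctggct
CCT4: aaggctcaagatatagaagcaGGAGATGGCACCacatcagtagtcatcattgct
CCT3: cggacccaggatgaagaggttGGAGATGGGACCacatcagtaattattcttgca
CCT6A: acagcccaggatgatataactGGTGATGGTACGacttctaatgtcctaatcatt
CCT5: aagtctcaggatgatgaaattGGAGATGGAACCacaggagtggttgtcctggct
TCP1: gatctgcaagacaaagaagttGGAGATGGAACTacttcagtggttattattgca
CCT8: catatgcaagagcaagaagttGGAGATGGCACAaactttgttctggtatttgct
CCT2: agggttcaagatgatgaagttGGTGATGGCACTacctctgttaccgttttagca
Of the 4 codons in capitals, 2 end in G or C in CCT7, CCT4 and CCT3, 1 does in CCT6A, CCT5, CCT8 and CCT2, and 0 do in TCP1. In 4 genes the stretch lies in a single exon: chr2:61880326-61880379 on the minus strand for CCT4, chr7:56054411-56054464 on the plus strand for CCT6A, chr21:29067613-29067666 on the minus strand for CCT8 and chr12:69587938-69587991 on the plus strand for CCT2. In the other genes it runs across an exon junction. GC content of the stretch was 55.6% in CCT7, 48.1% in CCT3 and CCT5, 44.4% in CCT4 and CCT2, 40.7% in CCT6A and CCT8, and 38.9% in TCP1.

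Gene counts per library lay between 4863449 and 5097332 with EPN24-Cas13d and between 1830860 and 1903492 with EPN24. Levels are given as CPM with TMM scaling, a method that assumes most genes to be alike between libraries. A floor of 3 counts corresponded to 0.721 to 1.42 CPM, far below each CCT value. The 5 HEK293T markers were all tested and went in both directions: with TMM 3 were higher, 1 lower and 1 not called, and with the filter of 10 counts and 10 CPM 1 was higher, 2 lower and 2 not called. Of all tested genes 32.6% were higher and 48.2% lower with TMM, and 40.1% and 39.6% with that filter. Mean levels in EPN24-Cas13d and EPN24 were 1812 and 141 CPM for VIM, 48.4 and 18.6 for KRT18, 44.8 and 22.6 for KRT8, 37.2 and 99.7 for NEFM (log2 fold change -1.42, called lower) and 11.8 and 19.2 for PAX2 (-0.71, not called). The 8 blood and liver markers that serum could bring summed to 7.93 and 5.54 CPM with EPN24-Cas13d and to 41.9 and 40.2 CPM with EPN24, with HBA1 at 0 and HBA2 and HBB at no more than 2 counts in each library. Of the 4 tested, 3 were lower and 1 was not called with TMM, where 48.2% of all tested genes were lower. TF, the transferrin message, was the most abundant at 4.26 and 25.6 CPM. The 3 leukocyte markers, PTPRC, CD3E and LYZ, summed to 1.92 and 2.27 CPM and to 20.1 and 15.1 CPM. The part of either list in the CCT results was not tested.

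With TMM scaling and the filter on low counts, all 8 CCT messages were higher in EPN24-Cas13d than in EPN24, but by very different amounts. The direction of TCP1, CCT8 and CCT2 depended on the filter, as given below. The fold difference ran from 11.2 for CCT7 to 1.72 for CCT2. With edgeR (quasi-likelihood, Benjamini-Hochberg adjustment over all 20476 tested genes) each of the 8 was below the threshold of 0.05. Of all these genes 32.6% were called higher and 80.9% were called in either direction. The median log2 fold change was 1.82 over the 8 members and -0.96 over all tested genes. In each of the 8, both EPN24-Cas13d libraries lay above both EPN24 libraries, which held for 36.8% of all tested genes. The members fall into a steep group of CCT7, CCT4 and CCT3, a middle position held by CCT6A, and a shallow group of CCT5, TCP1, CCT8 and CCT2.

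In the steep group, CCT7, the eta subunit (ENSG00000135624.17; plus strand of chromosome 2 between 73233420 and 73253021), stood at 889 and 898 CPM with EPN24-Cas13d and at 84.3 and 74.8 CPM with EPN24. Its log2 fold change was 3.49 with an approximate SE of 0.12 (adjusted p = 4.82e-12, edgeR). CCT4, the delta subunit, one of those that bind ATP tightly (ENSG00000115484.15; minus strand of chromosome 2 between 61868085 and 61888671), measured 893 and 897 against 85.0 and 103 CPM. The log2 fold change of CCT4 was 3.25, SE 0.12 (adjusted p = 1.43e-11, edgeR). Replicates of these 2 messages lay close together with EPN24-Cas13d, and the groups were far apart. CCT3, the gamma subunit, which binds ATP weakly (ENSG00000163468.15; minus strand of chromosome 1 between 156308968 and 156367873), had the highest CPM of the 8 in every library, at 1066 and 1032 against 114 and 125 CPM. It had a log2 fold change of 3.14, SE 0.11 (adjusted p = 7.04e-12, edgeR).

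CCT6A, the zeta subunit that is made in most tissues (ENSG00000146731.11; plus strand of chromosome 7 between 56051685 and 56063989), measured 345 and 363 against 64.2 and 97.0 CPM. The 2 EPN24 libraries were further apart for CCT6A than for the steep group, and the groups did not overlap. Its log2 fold change was 2.14, SE 0.16 (adjusted p = 2.12e-08, edgeR).

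In the shallow group, CCT5, the epsilon subunit, which can also form rings on its own (ENSG00000150753.12; plus strand of chromosome 5 between 10249929 and 10266389), measured 176 and 165 against 54.6 and 65.8 CPM, a log2 fold change of 1.50, SE 0.15 (adjusted p = 6.94e-07, edgeR). TCP1, the subunit after which the complex was first named (ENSG00000120438.12; minus strand of chromosome 6 between 159778498 and 159789703), measured 178 and 148 against 69.6 and 75.5 CPM, a log2 fold change of 1.17, SE 0.15 (adjusted p = 1.09e-05, edgeR). For both messages each EPN24-Cas13d library lay above each EPN24 library, by a margin far smaller than in the steep group. CCT8, the theta subunit (ENSG00000156261.13; minus strand of chromosome 21 between 29055805 and 29073797), measured 111 and 99.0 against 35.7 and 80.5 CPM, a log2 fold change of 0.87, SE 0.26 (adjusted p = 0.00659, edgeR). CCT8 had the widest EPN24 spread of the 8, from 80 and 170 counts, and without EPN24 replicate 1 its log2 fold change was 0.25 (adjusted p = 0.126). CCT2, the beta subunit, also described as a receptor for clearing protein aggregates (ENSG00000166226.13; plus strand of chromosome 12 between 69585426 and 69601570), measured 93.3 and 107 against 56.2 and 60.6 CPM, a log2 fold change of 0.78, SE 0.17 (adjusted p = 0.000809, edgeR). Without EPN24-Cas13d replicate 2 the CCT2 log2 fold change was 0.74 (adjusted p = 0.0575).

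**Figure D1:**
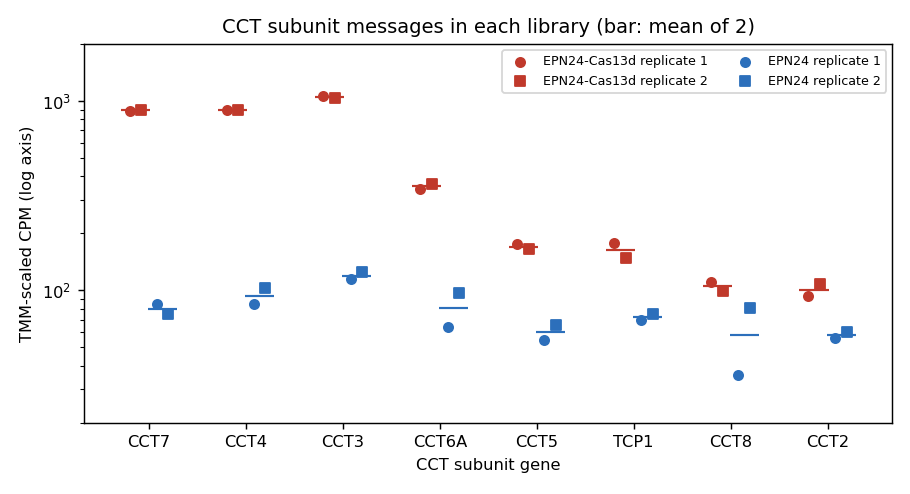
TMM-scaled CPM of each CCT message on a log axis, with red points for the 2 EPN24-Cas13d libraries, blue points for the 2 EPN24 libraries, circles for replicate 1, squares for replicate 2 and bars for the means. CCT7, CCT4 and CCT3 lie between 889 and 1066 CPM in EPN24-Cas13d, while in EPN24 all 8 messages lie between 35.7 and 125 CPM.

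Set against the ERCC RNA, which stands for a fixed volume of supernatant, the whole set was more abundant with EPN24-Cas13d. The 8 messages summed to 174 and 180 counts per 1000 ERCC counts with EPN24-Cas13d and to 2.84 and 2.86 with EPN24, a ratio of 62.0. The two-sided exact permutation p was 0.33, which 2 against 2 libraries cannot go below. Scaled to ERCC totals, all 8 were called higher by edgeR, as were 58.4% of all tested genes (2.33% were lower), with log2 fold changes from 4.15 (CCT2) to 6.85 (CCT7) and a median of 5.19 against 2.38 over all tested genes. As a share of gene counts the sum was 0.306% and 0.303% against 0.0691% and 0.0757%. In the authors' deposited table of their own DESeq2 comparison the log2 fold changes were 6.80 for CCT7, 6.59 for CCT4, 6.47 for CCT3 and 5.49 for CCT6A. They were 4.84 for CCT5, 4.50 for TCP1, 4.25 for CCT8 and 4.11 for CCT2. The order is that of the TMM values, but both come from the same libraries. Another scaling could hardly change it, so it is not independent evidence.

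How the shallow group compares with an average gene depended on which genes were tested. When genes needed 10 counts and 10 CPM to be tested, a stricter filter that leaves 10051 genes with a median log2 fold change of 0.049, CCT7 (2.28), CCT4 (2.05), CCT3 (1.93) and CCT6A (0.93) were called higher, as were 40.1% of genes. In that setting CCT5 was at 0.30 (adjusted p = 0.0865), TCP1 at -0.038 (adjusted p = 0.822) and CCT8 at -0.34 (adjusted p = 0.276), and CCT2 was called lower at -0.42 (adjusted p = 0.0359, edgeR), as were 39.6% of genes. With background subtracted at the density of counts on 361 olfactory receptor genes, receptors of nasal sensory neurons, TCP1 was at 0.28 (adjusted p = 0.135), CCT8 at -0.022 and CCT2 at -0.10, neither called. CCT5 was called higher with background subtracted, at 0.65 (adjusted p = 0.00727, edgeR), as were 5310 of all genes. Scaled to total counts, CCT8 (0.31) and CCT2 (0.21) were not called either. In that scaling CCT5 (0.94) and TCP1 (0.60) were called higher, as were 5559 of all genes. The steep group and CCT6A were called higher in each of these settings.

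**Figure D2:**
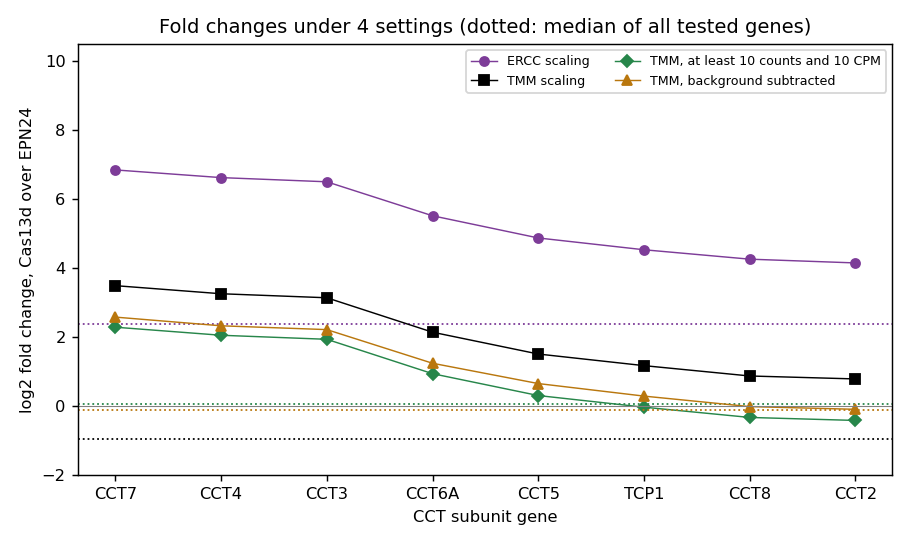
Log2 fold change of EPN24-Cas13d over EPN24 for each CCT message under 4 settings, with a dotted line for the median of all tested genes in the same colour. The order from CCT7 to CCT2 is the same in each setting shown. The height of the line moves with the setting, from 4.15 to 6.85 with ERCC scaling to -0.42 to 2.28 with the stricter filter. Another scaling or filter moves all messages by nearly the same amount, so of these settings only background subtraction could readily change the order. With the GC trend removed, not shown here, CCT4 (3.92) lay above CCT7 (3.15) and CCT6A (2.89) above CCT3 (2.82).

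The ratios between subunits do not depend on how libraries are scaled, and they differed between the groups. Counts of CCT7 over CCT2, the members of highest and lowest fold change, were 9.54 and 8.35 with EPN24-Cas13d and 1.50 and 1.23 with EPN24. Counts of CCT3 over TCP1 were 5.98 and 6.98 against 1.64 and 1.65, and of CCT4 over CCT8 8.02 and 9.06 against 2.38 and 1.28. These pairs were chosen after their values were seen. Replicates of a group were close in each ratio except CCT4 over CCT8 in EPN24, and the groups did not overlap.

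Each member's share of the summed CCT level, in CPM per kb of deposited gene length, gave the make-up of the set. That length exceeds the principal transcript's by unequal amounts, such as 4230 against 2041 nt in CCT2 and 2701 against 2520 nt in CCT4. Comparisons between members therefore depend on the length used. With EPN24-Cas13d, CCT4, CCT3 and CCT7 together held 80.2 ± 0.132% of the summed level (SD, n = 2), against 53.4 ± 4.65% with EPN24 (SD, n = 2). CCT4 alone held 31.2 ± 0.276% against 21.0 ± 0.0985%, CCT7 23.5 ± 0.288% against 13.6 ± 3.04% and CCT3 25.5 ± 0.432% against 18.8 ± 1.51%. All 5 other members held smaller shares with EPN24-Cas13d. CCT6A held 8.65 ± 0.362% against 12.5 ± 1.89%, TCP1 3.14 ± 0.394% against 9.02 ± 0.746%, CCT8 2.96 ± 0.23% against 10.2 ± 4.3%, CCT5 2.84 ± 0.106% against 6.45 ± 0.0585% and CCT2 2.23 ± 0.236% against 8.39 ± 0.731%. Each share had an exact permutation p of 0.33, two-sided, again the smallest possible. Summed over the members that gained, 26.8 percentage points of the set lay elsewhere with EPN24-Cas13d than with EPN24.

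The same question was put to edgeR with the summed CCT counts as library size, so that a member's fold change is read against the 8 together. CCT7 was higher, with a log2 fold change of 0.89 (SE 0.16, adjusted p = 0.000405), as were CCT4 at 0.67 (SE 0.12, adjusted p = 0.000506) and CCT3 at 0.55 (SE 0.12, adjusted p = 0.00177). CCT2 was lower at -1.81 (SE 0.18, adjusted p = 1.77e-05), as were CCT8 at -1.69 (SE 0.26, adjusted p = 0.000174) and TCP1 at -1.42 (SE 0.17, adjusted p = 4.50e-05). CCT5 at -1.08 (SE 0.16, adjusted p = 0.000131) and CCT6A at -0.44 (SE 0.16, adjusted p = 0.0237) were lower too. In this scaling 8.21% of all tested genes were called higher and 76.3% lower. Since the members make up the sum, they cannot all move the same way, and the 3 that were higher are also those that hold most of it. The CCT6A call was lost in several settings, at adjusted p = 0.0639 by the DESeq2 Wald test and 0.248, 0.154 and 0.0645 without EPN24-Cas13d replicate 1, EPN24-Cas13d replicate 2 or EPN24 replicate 2.

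**Figure D3:**
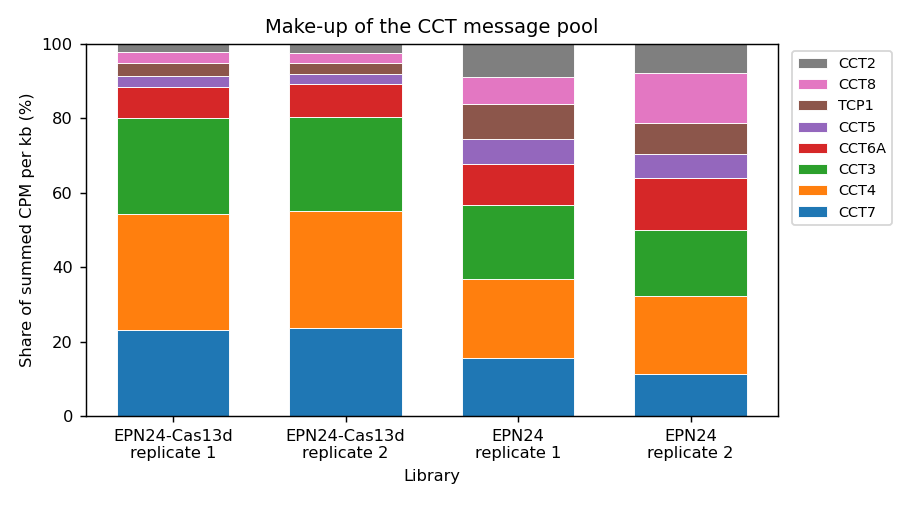
Share of each CCT message in the summed CPM per kb, in percent, as stacked bars for the 4 libraries. CCT7, CCT4 and CCT3, at the bottom of each bar, reach 80.1% and 80.3% with EPN24-Cas13d and 56.7% and 50.1% with EPN24.

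The spread of levels among the subunits was wider with EPN24-Cas13d. On the CPM per kb scale the highest level was 15.0 and 13.1 times the lowest with EPN24-Cas13d, and 3.25 and 3.27 times with EPN24. With EPN24-Cas13d the order was CCT4 (331 ± 1.05 CPM per kb), CCT3 (272 ± 6.14), CCT7 (249 ± 1.65), CCT6A (92.0 ± 3.33), TCP1 (33.4 ± 4.38), CCT8 (31.5 ± 2.62), CCT5 (30.2 ± 1.3) and CCT2 (23.7 ± 2.37; SD, n = 2 for each). The first 4 were separate from their neighbours, TCP1, CCT8 and CCT5 overlapped in turn, and CCT2 lay below them. With EPN24 the order was CCT4 (34.8 ± 4.71 CPM per kb), CCT3 (30.9 ± 1.85), CCT7 (22.2 ± 1.87), CCT6A (21.0 ± 6.03), CCT8 (17.4 ± 9.48), TCP1 (14.9 ± 0.859), CCT2 (13.8 ± 0.735) and CCT5 (10.7 ± 1.4; SD, n = 2 for each). There CCT4 overlapped CCT3, and each message from CCT7 to CCT2 overlapped its neighbour. CCT4, CCT3, CCT7 and CCT6A had the highest means in both groups, though CCT6A overlapped CCT8 in EPN24. On this scale the messages of largest fold change were also the most abundant in EPN24, for CCT6A only within the spread. The order depends on the length used. With EPN24-Cas13d, CCT3 had a higher mean CPM than CCT4 (1049 against 895) and a shorter principal transcript (2150 against 2520 nt). By that length CCT4 would not come first.

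The coding sequences of the 8 messages are nearly equal in length, from 1596 nt (CCT6A) to 1671 nt (TCP1), but differ in composition. GC content at the third codon position was 57.7% in CCT7, 56.6% in CCT3, 50.4% in CCT5, 42.1% in CCT6A, 38.3% in CCT4, 33.9% in TCP1, 33.2% in CCT2 and 31.7% in CCT8. Across the 8 members, which share the same 4 libraries, this GC content and the TMM log2 fold change had a Pearson r of 0.72 and a Spearman rho of 0.81. For the whole transcript r was 0.77 and rho 0.88, and for transcript length r was -0.14 and rho 0.024. At the third codon position, CCT4 had a lower GC content than CCT3 and CCT5 and a larger fold change than either. CCT6A likewise had a lower GC content than CCT5 and a larger fold change. Over the whole transcript CCT4 (44.7%) and CCT5 (44.6%) were nearly alike. The 3 members of lowest GC, CCT8, CCT2 and TCP1, had the smallest fold changes. The 3′ UTR, which follows the coding sequence, ranged from 143 nt in CCT7 to 1629 nt in CCT5, and its length had a rho of -0.095 with the fold change.

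Protein-coding genes as a whole moved with the same measure, and the CCT messages lay above genes of like composition. Among the 20% of tested protein-coding genes with the lowest GC at the third codon position, 6.5% were called higher and the median log2 fold change was -2.42. CCT8, CCT2, TCP1, CCT4 and CCT6A belong to that bin, and all 5 were called higher. In the next bin, with CCT5, 23.9% were higher and the median was -1.15, and in the middle bin, with CCT3 and CCT7, 43.8% were higher and the median was 0.27. The 2 bins of highest GC, with 51.0% and 58.8% of genes higher, held no CCT message. A GC trend was also removed, by the GC content of each gene's longest transcript, which need not be the principal transcript used above. All 8 were then called higher, from 1.27 (CCT2) to 3.92 (CCT4), with a median of 2.51 against -0.67 over all genes. Read against the summed CCT counts with that trend removed, CCT4 (1.34) and CCT7 (0.58) were called higher, CCT3 (0.26) and CCT6A (0.32) were not called, and CCT2 (-1.31), CCT8 (-0.77), TCP1 (-0.61) and CCT5 (-0.39) were called lower. The part of base composition in the differences among the subunits was not tested beyond these values.

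**Figure D4:**
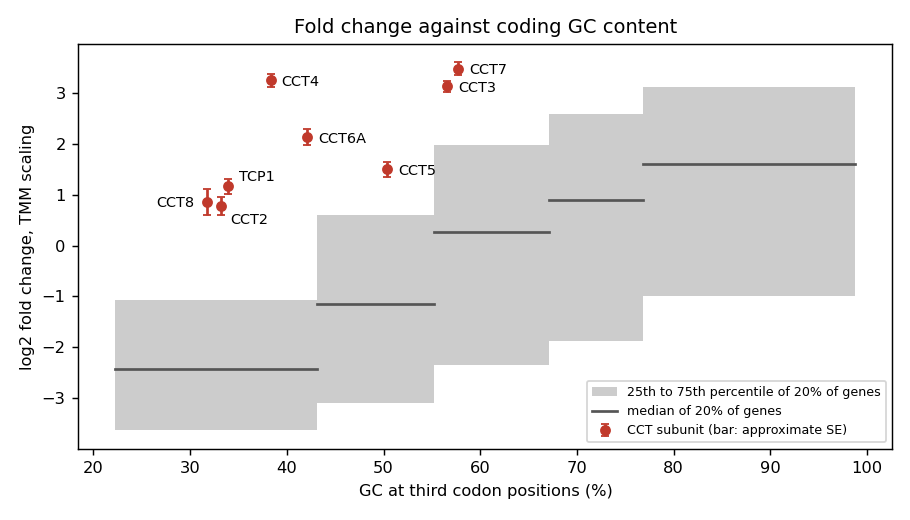
TMM log2 fold change against GC content at the third codon position, in percent. Red points are the 8 CCT messages with their approximate SE, grey boxes span the 25th to 75th percentile of all tested protein-coding genes in 5 bins of equal size, and dark lines are the bin medians, which climb from -2.42 to 1.61. Each CCT message lies above the box of its bin.

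Reads of other loci were not separated from the members' counts, and their part in the results was not tested. Of 14 CCT pseudogenes, 3 had no count in any library, and together they held 74 and 43 counts with EPN24-Cas13d and 82.5 and 46.5 with EPN24, which is 0.474% and 0.292% of the members' counts and 6.52% and 3.23%. CCT6P1 and CCT6P3, copies of CCT6A, held most of them, with 36 and 22 against 32.5 and 16.5 counts in CCT6P1. The strand setting of the counting is not given in the sources used here, so reads on shared exons cannot be assigned. ACAT2 on the opposite strand shares 454 exonic bases with TCP1 and had 89.7 and 90.3 against 32.3 and 32.7 counts. Over CCT4 lie 2 opposite-strand lncRNAs, ENSG00000286360 with 181 shared exonic bases and 241.5 and 256.5 against 22 and 16.5 counts, and ENSG00000236498 with 275 shared bases and 107 and 86.5 against 3.5 and 3 counts. ENSG00000271980, an opposite-strand lncRNA, shares 1734 exonic bases with CCT5 and had 59.5 and 37.5 against 8.5 and 15 counts. The snoRNAs SNORA20 and SNORA29 within TCP1 had 0 to 6 counts and 0 counts, and CCT6B, a relative of CCT6A known from testis, had 2 and 2 against 9 and 2.5.

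The messages of CCT's partners went in both directions, against 48.2% of all tested genes lower and 32.6% higher with TMM. Of 9 prefoldin and prefoldin-like messages 2 were higher, 5 lower and 2 not called with TMM scaling (median log2 fold change -1.32), while with ERCC scaling 5 were higher, 0 lower and 4 not called (median 2.03). URI1, a prefoldin-like scaffold (1.88, or 5.25 with ERCC scaling), and PDRG1 (1.04, or 4.43) were higher, and both are prefoldin-like. The 5 lower messages were all subunits of prefoldin itself, and no prefoldin subunit was called higher with TMM. With the stricter filter URI1 was at 0.68 and called higher, and PDRG1 was at -0.16 (adjusted p = 0.717, edgeR). Of 6 tested there 1 was higher and 4 lower, where 40.1% and 39.6% of all tested genes were. PFDN4, a prefoldin subunit and the lowest of the list, had 0 and 2 counts with EPN24-Cas13d and 20 and 12 with EPN24, a log2 fold change of -4.68 (adjusted p = 0.000801, edgeR), but -1.51 and not called with ERCC scaling. All 3 tested phosducin-like messages, PDCL, PDCL3 and TXNDC9, were lower with TMM (median -3.26) and not called with ERCC scaling (median 0.056). They had 0 to 10 counts per library with EPN24-Cas13d, and 0 of them passed the stricter filter. With the GC trend removed 1 was lower and 2 were not called (median -1.73, against -0.67 over all genes). PDCL2 was too sparse to test. These co-chaperones were at 7.41 to 12.5 CPM in EPN24, against 58.1 to 119 CPM for the CCT messages.

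Among the tubulin cofactors, TBCD (1.50), ARL2 (1.24) and TBCB (0.76) were higher and TBCA (-3.18) and both rows of TBCE (-1.44 and -0.62) were lower with TMM, and TBCC (0.73, adjusted p = 0.0978, edgeR) was not called. With ERCC scaling 6 of the 7 rows were higher and 0 lower, where 58.4% and 2.33% of all tested genes were. With the stricter filter 0 were higher and 3 lower, where 40.1% and 39.6% of all tested genes were. Of the chaperonin relatives, HSPD1, the mitochondrial chaperonin, measured 126 against 87.8 CPM (0.53, adjusted p = 0.00691, edgeR), turning to -0.67 with the stricter filter. HSPE1, its co-chaperonin lid, stood at 1.58 against 21.9 CPM (-3.76 with TMM, -0.44 and no call with ERCC totals). BBS10 (-3.27) and MKKS (-2.38), chaperonin-like proteins of Bardet-Biedl syndrome, were lower with TMM, at 0.025 and 0.91 with ERCC scaling and not called there. Counts were few, at 2 and 2 against 6 and 16 in BBS10 and 7 and 8.5 against 30.3 and 13 in the tested row of MKKS. BBS12, CCT6B, CCT8L2 and the other rows of MKKS did not pass the filter.

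The messages of proteins that CCT folds were higher in EPN24-Cas13d in nearly all cases. Of 17 client messages 16 were called higher and 0 lower with TMM (median 2.33), where 32.6% of all tested genes were higher. Their GC content at the third codon position ran from 61.5% to 88.1%. All thus lie in the middle bin or the 2 bins of highest GC, where 43.8% to 58.8% of genes were higher. With the GC trend removed the client median was 1.26, against -0.67 over all genes. With ERCC scaling 17 were higher, where 58.4% of all tested genes were. With the stricter filter 14 of 16 tested were higher, where 40.1% of all tested genes were, and TUBB (-0.10) and VHL (-0.47), named after their values were seen, were not called. ACTG1 and ACTB, the cytoplasmic actins, were the most abundant, at 2333 against 473 CPM (2.30) and 2038 against 482 CPM (2.08). FZR1, a WD-repeat activator of the anaphase-promoting complex, had the largest value, 597 against 29.9 CPM (4.32). TUBB2A, a beta tubulin, had the smallest, 9.78 against 6.02 CPM (0.71, adjusted p = 0.177). Tubulin genes are near-identical in parts, so reads can be split among them. The client list was drawn up with earlier results of these libraries known and is not independent evidence of its direction.

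**Figure D5:**
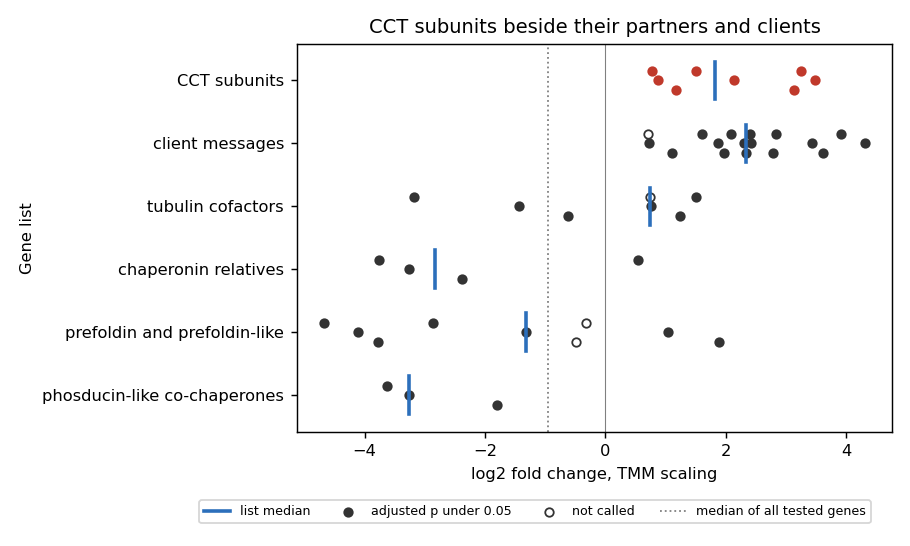
TMM log2 fold change of each tested message in 6 lists, with filled points for an adjusted p under 0.05, open points for messages not called, blue bars for list medians and a dotted line at the median of all tested genes, -0.96. The CCT subunits (median 1.82) and client messages (median 2.33) lie right of 0, and the phosducin-like messages (median -3.26) lie left of it.

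Among 6204 other protein-coding genes with a mean of at least 20 CPM, the 5 nearest to the mean profile of the 8 CCT messages over the 4 libraries were RTEL1, RPS6KL1, AMER1, ENSG00000167774 and RILPL1. Nearness was the Euclidean distance of centred log2 CPM values and ran from 0.024 for RTEL1 to 0.047 for RILPL1. Their log2 fold changes lay between 2.05 and 2.18, close to that of CCT6A. With 2 libraries in each group such a profile holds little more than the group difference.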

How the data were processed

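The authors deposited expected counts per gene, read counts with some fractions and no normalization, with an exon length for each gene. Per the submitters' processing notes, STAR 2.7.10a, featureCounts 2.0.1 and DESeq2 1.36.0 were among the tools, on GRCh38. For the annotation, strand and multi-mapping settings the sources used here give nothing. The authors' deposited DESeq2 table holds a mean normalized count (signal), log2 fold changes, a Wald statistic (score) and p-values, and it gave the gene symbols. Per the labels' protocols, ERCC RNA was added to 200 µl of supernatant and libraries had 17 PCR cycles, with no molecular identifiers named, so PCR copies are not independent molecules.

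Of the count table, 5 lines, pieces of 1 broken row, were left out, and 92 ERCC rows were kept apart. Counts were rounded, filtered with filterByExpr, scaled by TMM and tested in edgeR 4.0.16 (R 4.3.3) with the robust quasi-likelihood test and Benjamini-Hochberg adjustment over 20476 genes. An approximate SE was taken by dividing the size of the log2 fold change by the square root of F. On simulated counts for 20476 genes 12% of the genes changed 2-fold and 72% of those changed 4-fold were called, and 3 unchanged genes. Only 200 genes were changed there and all genes shared a common dispersion. In the data 80.9% of genes were called, so these rates do not describe the fit to the data. Alternatives were other scalings, filters and tests (DESeq2 1.42.0, limma 3.58.1), each library left out, a replicate block, halved counts, GC or length trends removed and background subtracted. GC content came from GENCODE 29 transcripts, matched on gene ID without version. The GC trend used the longest transcript of each gene, and the other GC values used the principal coding transcript. The members and lists were chosen with earlier results of these data known. All 8 members are named. Of the partner and client lists, the text could name the highest and lowest log2 fold change, the 2 most abundant tested genes, and any gene of a list of at most 7. The marker lists of other cell types are given by counts and summed levels.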

Additional observations from a re-analysis of the deposited data

How the results depend on the processing

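All 8 CCT messages were called higher in 11 of the 16 alternatives to the fit, with DESeq2 size factors, ERCC totals, no filter, the DESeq2 Wald test, limma-voom, the replicate block, halved counts, a GC or length trend removed and 2 of the left-out libraries. In those 11 settings 5820 to 11960 of all genes were called higher too, against 6685 in the main fit. Scaling to total counts called 6, all higher, with 5559 of all genes higher and 11161 lower. The stricter filter called 5 (4 higher, 1 lower) and 8014 of all genes in place of 16556. Background subtraction called 5, all higher, with 5310 of all genes higher and 5744 lower. With the stricter filter the log2 fold changes of TCP1 (-0.038), CCT2 (-0.42) and CCT8 (-0.34) turned, and with background subtracted those of CCT2 (-0.10) and CCT8 (-0.022). Fewer and more abundant genes set the centre in the stricter filter. With each library left out in turn, 7 to 8 members and 13291 to 14495 of all genes were called. Relative to the summed CCT counts, all 8 were called in the stricter filter and with background subtracted, and CCT6A turned to 0.32 with the GC trend removed, where 6 were called. Shares over all genes were taken only for the main fit of that kind, 8.21% higher and 76.3% lower.

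The summed CCT counts per ERCC count differed 55.2-fold without CCT3 in place of 62.0-fold, and 61.1- to 63.0-fold with each library left out. The share of the set that lay elsewhere was 26.1 to 28.8 percentage points in the alternatives, 1 of them, division by the principal transcript's length, chosen after seeing the data.

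Replicate numbers are shared by both groups, but no label ties them, and deviations of same-numbered libraries had a correlation of -0.0041 over 20476 genes. With the number as a replicate block 15041 of all genes were called, 8 CCT messages were called higher, and 7 were called relative to their sum, without CCT6A (adjusted p = 0.0517). In EPN24 the 8 messages had 80 to 263 counts per library, which limits the precision of each fold change.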
